A study of Homo sapiens with 4 samples.

Results

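The genes described here are CDK4 and CDK6, the D cyclins CCND1, CCND2 and CCND3, and the CDK inhibitors CDKN1A, CDKN1B, CDKN1C, CDKN2C and CDKN2D. They were taken by name, as the kinases that PD-0332991 inhibits, their activating subunits and their natural inhibitors, and are 10 of the 24462 genes in the deposited tables. In 4 libraries of HepG2, 9 of the 10 had at least 10 reads in 1 library or more, and CDKN1C had 0 reads in every library.

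HepG2 is a human liver tumour cell line, which the authors describe as a hepatocellular carcinoma line. The 4 groups were cells given DMSO, the solvent control; cells given PD-0332991, a CDK4/6 kinase inhibitor also known as palbociclib; cells transfected with scrambled siRNA, a control oligo; and cells transfected with siRNA against both CDK4 and CDK6 (CDK4/6 KD). All groups share the unmodified parental line, and neither the dose of PD-0332991 nor the exposure times of the sequenced cells are given in the sources used here. Each group was 1 library, made by QuantSeq, which reads the 3′ end of polyadenylated transcripts, with totals between 8983848 and 11176880 reads.

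A D cyclin binds CDK4 or CDK6, and the active pair phosphorylates the retinoblastoma protein RB, which then lets go of the E2F factors that switch on genes of DNA replication. INK4 proteins (p18 from CDKN2C, p19 from CDKN2D) bind CDK4 and CDK6 themselves and keep D cyclins away. CIP/KIP proteins (p21 from CDKN1A, p27 from CDKN1B, p57 from CDKN1C) bind whole cyclin-CDK pairs, inhibit CDK2 and can also help cyclin D and CDK4/6 to assemble. In hepatocytes cyclin D1 is known as the D cyclin that mitogens induce when the liver regenerates.

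Levels are given in CPM, the reads of a gene scaled by the total of its library, with library sizes corrected by TMM factors. A fold change is the ratio of the levels of 2 libraries after adding 0.5 reads, scaled to library size, and is followed by its exact 95% Clopper-Pearson interval from the split of the reads. With 1 library per group no difference had a replicate check, no p-value exists, and the intervals cover counting error only, so that each value compares libraries and not conditions. In RNA from whole cultures, fewer expressing cells and less RNA per cell cannot be told apart. Reads near a 3′ end do not scale with gene length, and levels were compared between libraries and not between genes. A gene is called here when it differs by at least 2-fold in either direction. Counts of calls are to be read against the share of all genes called, which was 16.8% in CDK4/6 KD to scrambled siRNA, 14.6% in PD-0332991 to DMSO and 11.9% in scrambled siRNA to DMSO.

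All 10 hepatocyte markers were detected in each library, with summed levels between 15424 and 19702 CPM. Of the other cell types, the 6 endothelial markers summed to under 1 CPM in each library and CDH5, KDR and CLDN5 were at 0. CD3E was at 0 in every library, PTPRC had at most 2 reads, and the summed leukocyte level of 511 to 1036 CPM came almost wholly from LYZ. TP63 had at most 1 read and DSG3 at most 2, while the 12 keratinocyte markers summed to 204 CPM in DMSO, 199 in PD-0332991, 362 in scrambled siRNA and 203 in CDK4/6 KD. Most of these reads came from SFN, with 1221, 563, 3266 and 1152 reads in the same order, and KRT10, with 606, 701, 514 and 986. Between 2 and 6 of these 12 reached 10 reads in a library. KRT14 had 9, 249, 31 and 74 reads in the same order, KRT5 had 2, 113, 13 and 43, and KRT6A had 9, 150, 37 and 28. The 9 fibroblast markers summed to 49.9, 81.2, 9.07 and 23.2 CPM. The part of these markers in the values below was not tested.

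**Figure D1:**
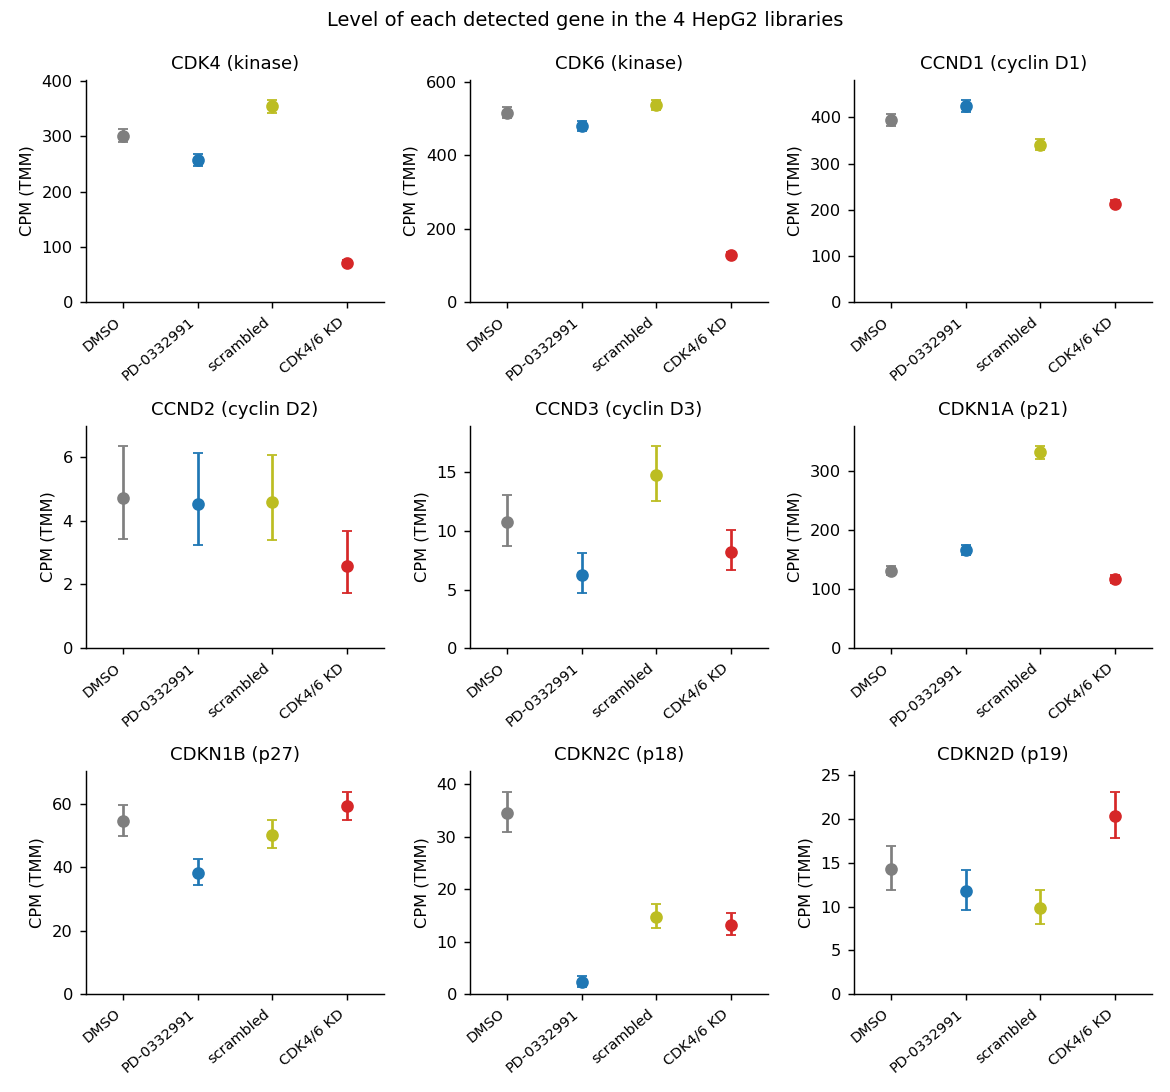
Level of each of the 9 detected genes in CPM (vertical axes from 0, a separate scale per gene) in the libraries of DMSO, PD-0332991, scrambled siRNA and CDK4/6 KD, with exact 95% Poisson intervals of the counts. CDK4 and CDK6 are lowest in CDK4/6 KD, CDKN2C is lowest in PD-0332991 at 2.31 CPM, and CDKN1A is highest in scrambled siRNA at 331 CPM.

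The siRNA targets were examined first. CDK4 (chr12:57747727-57756013, minus strand) had 2754 reads in DMSO, 2344 in PD-0332991, 3789 in scrambled siRNA and 814 in CDK4/6 KD, which gave 301, 257, 354 and 71.9 CPM. CDK6 (chr7:92604921-92836594, minus strand) had 4707, 4361, 5734 and 1464 reads, or 515, 479, 536 and 129 CPM. For both kinases the library with siRNA against them stood far below the others, as its label states.

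In CDK4/6 KD relative to scrambled siRNA the fold was 0.203 for CDK4 (0.188 to 0.219) and 0.241 for CDK6 (0.228 to 0.256). A fold as low or lower was seen for 0.984% of the 13617 genes tested in the case of CDK4 and 1.36% in the case of CDK6. PD-0332991 is directed at the proteins, and here the transcripts stayed near the DMSO level, with folds of 0.854 for CDK4 (0.808 to 0.903) and 0.930 for CDK6 (0.892 to 0.969). The share of CDK4 in the reads of both kinases was 36.9% in DMSO (35.8 to 38.0), 34.96% in PD-0332991 (33.8 to 36.1), 39.8% in scrambled siRNA (38.8 to 40.8) and 35.7% in CDK4/6 KD (33.8 to 37.7). The intervals of scrambled siRNA and CDK4/6 KD did not overlap, and the sum of both kinases was 890 CPM in scrambled siRNA and 201 CPM in CDK4/6 KD.

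Between the control libraries, scrambled siRNA to DMSO, CDK4 had a fold of 1.17 (1.12 to 1.23). For CDK6 the fold was 1.04 (1.00 to 1.08) with TMM, 0.994 with total counts and 0.977 with quantile normalization, so its direction there depends on the scaling. The 3′ end of CDK4 overlaps TSPAN31, a tetraspanin gene on the opposite strand, over 2485 bases. TSPAN31 had 206, 197, 182 and 145 reads, and its fold in CDK4/6 KD to scrambled siRNA was 0.754 (0.601 to 0.942). Whether reads were counted by strand is not stated, so reads from the shared stretch cannot be assigned to either gene.

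The 14 genes for assembly, activation and turnover of the cyclin D-CDK4/6 pairs include the CDK-activating kinase (CDK7, CCNH, MNAT1), the chaperone CDC37 and the ubiquitin ligases that act on D cyclins. None was called in CDK4/6 KD, against 16.8% of all genes, and there the folds ran from 0.720 for HSP90AB1, a chaperone of kinases, to 1.74 for DYRK1A, a kinase that phosphorylates cyclin D1. After PD-0332991 1 of 14 was called, against 14.6% of all genes, DYRK1B at 3.01 (1.01 to 13.7), which rests on 13 against 4 reads. Among those with 50 reads or more the range was 0.639 for USP2, a deubiquitinase of cyclin D1, to 1.38 for FBXO4, a ligase subunit. DYRK1B was also the 1 gene called between the controls, at 2.02 (0.616 to 9.33), again on few reads.

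CCND1 encodes cyclin D1 (chr11:69641087-69654474, plus strand). It had 3596 reads in DMSO, 3861 in PD-0332991, 3652 in scrambled siRNA and 2420 in CDK4/6 KD, or 394, 424, 341 and 214 CPM. PD-0332991 was the highest and CDK4/6 KD clearly the lowest. The fold was 0.626 in CDK4/6 KD to scrambled siRNA (0.595 to 0.660) and 1.08 in PD-0332991 to DMSO (1.03 to 1.13). The neighbouring ORAOV1 (LTO1), whose 3′ end shares 1399 bases with CCND1 on the opposite strand, had folds of 0.958 (0.793 to 1.16) and 0.980 (0.804 to 1.19) in the same comparisons.

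CCND2 encodes cyclin D2 (chr12:4273772-4305350, plus strand) and was sparsely read, with 43 reads in DMSO, 41 in PD-0332991, 49 in scrambled siRNA and 29 in CDK4/6 KD. These are 4.71, 4.50, 4.58 and 2.56 CPM. The first 3 levels were not separable from each other at this depth, and the fold of CDK4/6 KD to scrambled siRNA was 0.564 with a wide interval of 0.341 to 0.903. The fold of scrambled siRNA to DMSO was 0.973 with TMM and 1.01 with quantile normalization, so no direction can be read from it.

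CCND3 encodes cyclin D3 (chr6:41934933-42050357, minus strand). Its reads numbered 98 in DMSO, 57 in PD-0332991, 158 in scrambled siRNA and 93 in CDK4/6 KD, which are 10.7, 6.26, 14.8 and 8.22 CPM. Scrambled siRNA was the highest, and CDK4/6 KD lay between DMSO and PD-0332991 without differing from either beyond counting error. Each treatment was lower than its own control, with folds of 0.558 in CDK4/6 KD (0.426 to 0.723) and 0.586 after PD-0332991 (0.413 to 0.817).

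All 3 D cyclins were thus below the scrambled siRNA library in CDK4/6 KD under each of the 4 scalings, and none reached 2-fold. After PD-0332991 the 3 differed, with folds of 1.08 for CCND1, 0.957 for CCND2 (0.608 to 1.503) and 0.586 for CCND3. Within the D cyclin reads the share of CCND1 stayed between 94.6% and 97.5%. The share of CCND3 was 2.62% in DMSO (2.13 to 3.19), 1.44% in PD-0332991 (1.09 to 1.86), 4.09% in scrambled siRNA (3.49 to 4.77) and 3.66% in CDK4/6 KD (2.96 to 4.46). GENCODE lists processed pseudogenes of CDK4, CCND2 and CCND3, to which reads of those genes could also map, and none of them has a row in the tables.

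Beside CCND1, 20 mitogen genes upstream of it were read. Of these, 8 were lower by 2-fold in CDK4/6 KD than in scrambled siRNA, against 7.62% of all genes, and 1 was higher, against 9.19%. The list had a median log2 fold change of -0.34 against -0.0036 over all genes. EGR1, an immediate early factor, was the lowest at 0.0279, and MAPK3, which encodes the kinase ERK1, was the gene higher at 2.37. EGR1 and MAPK3 differed between the controls in the other direction, at 7.81 and 0.447 in scrambled siRNA to DMSO. There 3 genes of the list were higher, against 5.3% of all genes, and 2 lower, against 6.64%. These comparisons share the scrambled siRNA library. After PD-0332991 1 of 19 was called, FOSL1 at 0.369, an AP-1 subunit, against 14.6% of all genes.

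**Figure D2:**
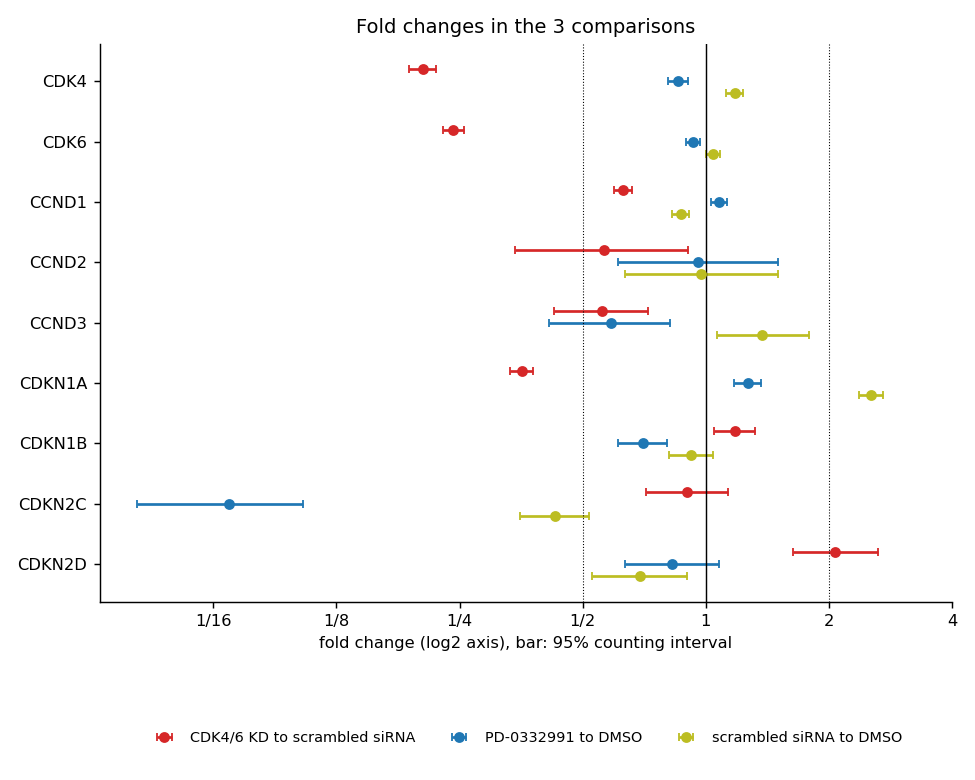
Fold change of each gene (log2 axis) in CDK4/6 KD to scrambled siRNA, PD-0332991 to DMSO and scrambled siRNA to DMSO, with exact 95% Clopper-Pearson intervals of the read split. Dotted lines mark 2-fold in either direction; CDKN2C after PD-0332991 lies farthest out at 0.0682, and CDKN1A lies on opposite sides of 1 in CDK4/6 KD (0.354) and in the controls (2.53).

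Counts of calls over the 9 detected genes were as follows. In CDK4/6 KD to scrambled siRNA 4 of 9 were called, CDK4, CDK6 and CDKN1A lower and CDKN2D higher, where 16.8% of all 13617 genes were called, 7.62% lower and 9.19% higher. Without the siRNA targets 2 of 7 remained. In PD-0332991 to DMSO 1 of 9 was called, CDKN2C lower and none higher, against 14.6% of 13443 genes, 7.06% lower and 7.49% higher. In scrambled siRNA to DMSO 2 of 9 were called, CDKN1A higher and CDKN2C lower, against 11.9% of 13303 genes, 5.3% higher and 6.64% lower. With so few genes the counts for PD-0332991 and for the controls are near these background shares, and the number that differed between the control libraries was not smaller than that after PD-0332991.

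CDKN1A encodes p21 (chr6:36676460-36687339, plus strand). Its reads numbered 1196 in DMSO, 1508 in PD-0332991, 3543 in scrambled siRNA and 1328 in CDK4/6 KD, or 131, 166, 331 and 117 CPM. The scrambled siRNA library stood alone at the top, and the others lay close together. The fold was therefore 0.354 in CDK4/6 KD to scrambled siRNA (0.332 to 0.377) and 0.896 in CDK4/6 KD to DMSO (0.828 to 0.970). After PD-0332991 it was 1.27 to DMSO (1.17 to 1.37) and 0.5003 to scrambled siRNA (0.471 to 0.531).

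The control libraries themselves differed in CDKN1A by a fold of 2.53 (2.37 to 2.70), a fold matched or exceeded by 2.86% of all genes. SFN, counted here among the keratinocyte markers and known as a p53 target, had 1221, 563, 3266 and 1152 reads in the 4 libraries and was likewise highest in scrambled siRNA. Of the 22 genes of the p53 list below, 14 were lower in scrambled siRNA than in DMSO and 8 higher. The median log2 fold change was -0.10 for that list and 0.0088 over all genes. A part of p53 in the level of CDKN1A was not tested. The genes whose folds against DMSO lay nearest to those of CDKN1A, among 10673 genes with a mean of 50 reads or more, were S100A11, PLLP and NOS3, at Euclidean distances of 0.161, 0.171 and 0.197 on the log2 scale over 3 libraries.

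CDKN1A is a textbook target of p53, and 22 other genes of p53 and its targets were read beside it. In scrambled siRNA to DMSO 1 of 22 was called, against 11.9% of all genes. It was GDF15, a stress-induced cytokine, at 2.15, and the list median was -0.10 on the log2 scale. GDF15 was, in CDK4/6 KD to scrambled siRNA, the 1 gene lower, at 0.451, against 7.62% of all genes. BBC3 and SESN1 were higher, at 2.73 and 2.49, against 9.19% of all genes. GDF15 had 937 CPM in DMSO, 2016 in scrambled siRNA and 909 in CDK4/6 KD. In scrambled siRNA to DMSO BBC3 and SESN1 were at 0.563 and 0.542. BBC3 encodes PUMA, which promotes apoptosis, and SESN1 a stress-response protein. None of the 22 was called after PD-0332991, against 14.6% of all genes. There SESN2, a paralog of SESN1, was the highest at 1.91 and TIGAR, a regulator of glycolysis, the lowest at 0.646.

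CDKN1B encodes p27 (chr12:12715058-12722371, plus strand). It had 500 reads in DMSO, 349 in PD-0332991, 539 in scrambled siRNA and 671 in CDK4/6 KD, or 54.7, 38.3, 50.4 and 59.3 CPM. PD-0332991 was the lowest library, with a fold of 0.701 to DMSO (0.609 to 0.805). CDK4/6 KD was the highest, with a fold of 1.18 to scrambled siRNA (1.05 to 1.32), but did not differ from DMSO beyond counting error at 1.08 (0.963 to 1.22). DNAJC13, SMN2 and CAPN10 had the most similar folds, at distances of 0.0370, 0.0492 and 0.0590.

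The share of CDKN1A in the reads of CDKN1A and CDKN1B was 70.5% in DMSO, 81.2% in PD-0332991, 86.8% in scrambled siRNA and 66.4% in CDK4/6 KD. The 95% intervals of these shares did not overlap between scrambled siRNA (85.7 to 87.8) and CDK4/6 KD (64.3 to 68.5), nor between DMSO (68.3 to 72.7) and PD-0332991 (79.4 to 83.0). CDKN1A thus took a larger share after PD-0332991 and a smaller one in CDK4/6 KD, each relative to its own control.

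A list of 7 genes serves the turnover of p27 protein. CKS1B, the cofactor with which SKP2 recognises p27, was lower in both treatments, at 0.428 in CDK4/6 KD (0.398 to 0.460) and 0.263 after PD-0332991 (0.241 to 0.287). It was the 1 gene of 7 called in CDK4/6 KD, against 16.8% of all genes. SKP2 itself was 1.66 in CDK4/6 KD and 0.445 after PD-0332991, where 2 of 7 were called, against 14.6% of all genes. No gene of the list was called between the controls, against 11.9% of all genes.

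CDKN1C encodes p57 (chr11:2883213-2885773, minus strand), the imprinted member of the CIP/KIP family. It had 0 reads in each library, and the limit that a count of 0 allows was set at 3 reads, not at the Poisson limit used for the levels of the other genes. It is 0.328 CPM in DMSO, 0.329 in PD-0332991, 0.280 in scrambled siRNA and 0.265 in CDK4/6 KD. Expression was thus not detectable at this depth, and no fold was computed.

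CDKN2C encodes p18 (chr1:50960745-50974633, plus strand). It had 316 reads in DMSO, 21 in PD-0332991, 158 in scrambled siRNA and 150 in CDK4/6 KD, which are 34.6, 2.31, 14.8 and 13.3 CPM. DMSO was the highest, PD-0332991 by far the lowest, and both transfected libraries lay together between them. The fold was 0.0682 in PD-0332991 to DMSO (0.0407 to 0.104), and 0.238% of all genes had a fold as low or lower. Against the scrambled siRNA library it was still 0.159 (0.0941 to 0.247).

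CDKN2C had a fold in CDK4/6 KD to scrambled siRNA of 0.898 (0.713 to 1.13), which did not differ from 1 beyond counting error. Scrambled siRNA to DMSO gave 0.428 (0.350 to 0.518) and CDK4/6 KD to DMSO 0.384 (0.313 to 0.467), comparisons that share the DMSO library. The 3 genes with the most similar folds were CENPE, CENPA and PLK4, at distances of 0.220, 0.280 and 0.356, which encode a centromere motor, the centromeric histone and the kinase that starts centriole duplication. CENPE had 1281, 94, 695 and 551 reads in the 4 libraries, the same order as CDKN2C.

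CDKN2D encodes p19 (chr19:10566462-10569059, minus strand). Its reads numbered 130 in DMSO, 107 in PD-0332991, 105 in scrambled siRNA and 230 in CDK4/6 KD, or 14.2, 11.8, 9.81 and 20.3 CPM. CDK4/6 KD was the highest library, and DMSO and PD-0332991, like PD-0332991 and scrambled siRNA, did not differ beyond counting error. The fold was 2.07 in CDK4/6 KD to scrambled siRNA (1.64 to 2.63), just past the 2-fold threshold, and 1.43 to DMSO (1.15 to 1.78). A fold as high was seen for 8.64% of all genes. After PD-0332991 it was 0.827 (0.633 to 1.08), and ROBO1, APBB2 and PPARD had the most similar folds, at distances of 0.0764, 0.101 and 0.142.

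The balance of the INK4 pair differed between libraries. CDKN2C made up 70.9% of their reads in DMSO (66.4 to 75.03), 16.4% in PD-0332991 (10.5 to 24.0), 60.1% in scrambled siRNA (53.9 to 66.0) and 39.5% in CDK4/6 KD (34.5 to 44.6). Both treatments lay below their own control, after PD-0332991 with fewer CDKN2C reads and in CDK4/6 KD with more CDKN2D reads.

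CDKN2A and CDKN2B, the other INK4 genes, were read for comparison. CDKN2A, whose locus encodes p16 and ARF, had 162, 186, 281 and 166 reads, with folds of 0.559 in CDK4/6 KD (0.458 to 0.679) and 1.15 after PD-0332991 (0.928 to 1.43). CDKN2B, which encodes p15, had 19, 29, 60 and 14 reads, with folds of 0.227 in CDK4/6 KD (0.114 to 0.399) and 2.66 between the controls (1.59 to 4.78). Both were highest in the scrambled siRNA library, as was CDKN1A.

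E2F motifs were looked for in the RefSeq promoter windows of these genes (GRCh38.p14, 250 bases before to 50 after a transcript start), with 12 windows for 7 of the 10 genes in the table used here. CCND1, CCND2 and CDKN1C were not analysed here. The E2F word TTCCCGC and its variant forms, namely TTGGCGC, then the form TTCGCGC and the last form TTGCCGC, on either strand, were found in 1 of the 12 windows, that of CDKN2C at chr1:50968456-50968755, and in 13.0% of all 35116 windows. The sites are shown for CDKN2C, for CENPA and PLK4 among its nearest genes and for RRM2, the lowest gene of the E2F target list, with the word in capitals. CENPE held none.

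CDKN2C, chr1:50968564-50968592, plus strand, word starting 131 bases before the start: gagagcgggagGCGGGAAtgagggcgcgg
CDKN2C, chr1:50968661-50968689, plus strand, word starting 34 bases before the start: ggcgcccggccTTCCCGCtcccgcggcgc
CENPA, chr2:26785814-26785842, plus strand, word starting 231 bases before the start: ggcaggagaatTTCCCGCcccatctcttt
PLK4, chr4:127881033-127881061, plus strand, word starting 188 bases before the start: gagcctgatggGCGCCAAggccggctggc
RRM2, chr2:10122365-10122393, plus strand, word starting 192 bases before the start: ggggcccgcgcGCGCCAAggccgccgaga

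The longer words TTTCCCGC, TTTGGCGC, TTTCGCGC and TTTGCCGC, which contain the shorter ones, were in none of the 12 windows and in 3.31% of all windows. The GC box GGGCGG was in 45.0% of all windows and, among these genes, in at least 1 window of CDK4, CDK6, CCND3, CDKN1A, CDKN1B, CDKN2C and CDKN2D. Of 14 genes of the E2F target list that have a window, 10 held one of the shorter words, against 15.3% of all 27305 symbols. These matches describe letters in a window and not binding. The shorter words were chosen after the values were seen, and CENPA and PLK4 were picked by their folds in these data. A part of E2F in the level of CDKN2C was not tested.

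The pathway downstream of CDK4/6 was covered by 2 lists. Of 18 genes of CDK2, cyclins E and A and E2F targets, 18 were lower by 2-fold after PD-0332991, against 7.06% of all genes. Their median log2 fold change was -2.53 against 0.02 over all genes. In CDK4/6 KD 10 were lower, against 7.62% of all genes, with a median of -1.11. All 18 had folds below 1 in CDK4/6 KD with TMM, and 17 with total counts. RRM2, a subunit of ribonucleotide reductase, was the lowest in both, at 0.0466 and 0.151. Between the controls 16 of 18 were below 1 in scrambled siRNA, with a median log2 fold change of -0.58, and none was called with TMM but 2 were with total counts. There CCNE1 (cyclin E1) had a fold of 1.38 and TK1 (thymidine kinase) 0.515.

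Of 13 pocket protein and E2F genes, 7 were lower by 2-fold after PD-0332991, against 7.06% of all genes. In CDK4/6 KD 4 were lower, against 7.62% of all genes, and none was higher in either. With total counts or quantile normalization 6 were lower after PD-0332991. E2F2, an activating E2F, had a fold of 0.0424 after PD-0332991, from 248 to 10 reads. E2F7, a repressing E2F, was the lowest in CDK4/6 KD at 0.193. RB1, the gene for RB, had 0.498 after PD-0332991 and 1.75 in CDK4/6 KD. Between the controls it had 0.544, with 34.0 CPM in DMSO, 18.5 in scrambled siRNA and 32.3 in CDK4/6 KD. E2F8 was the 1 gene called between the controls, at 0.391, against 11.9% of all genes, and with total counts 2 were called. Of the 9 detected kinase, cyclin and inhibitor genes, CDKN2C alone was called lower after PD-0332991.

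FOXO factors, TGF-β signals and MYC are known regulators of p15, p21 and p27, and 14 of 15 such genes were tested. SMAD7, an inhibitor of TGF-β signalling, was higher in CDK4/6 KD at 2.36, and TGFBR2, a TGF-β receptor, was lower at 0.276. These were the only calls of the list in CDK4/6 KD, against 16.8% of all genes. After PD-0332991 TGFB1, the ligand, was the 1 gene called, at 2.28, against 14.6% of all genes. Between the controls SMAD7, TGFBR1 and CEBPA were lower in scrambled siRNA, at 0.215, 0.388 and 0.244, against 6.64% of all genes.

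**Figure D3:**
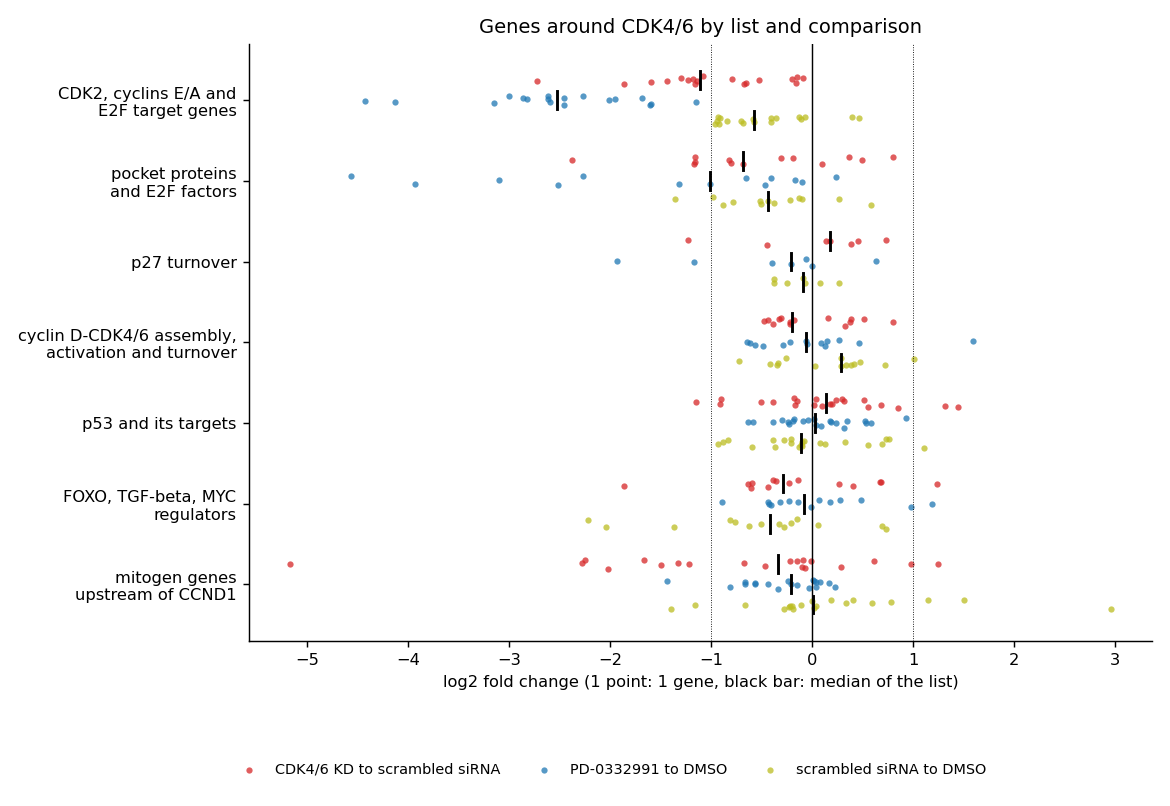
Log2 fold change of each gene (points) of 7 lists of genes around CDK4/6 in 3 comparisons, with the median of each list as a black bar and dotted lines at 2-fold. After PD-0332991 all 18 genes of the first list lie left of the 2-fold line with a median of -2.53, while the medians of the p53 list lie between -0.10 and 0.14.

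Summed by role, the kinases had 817 CPM in DMSO, 736 in PD-0332991, 890 in scrambled siRNA and 201 in CDK4/6 KD. The D cyclins summed to 409, 435, 361 and 225 CPM and the inhibitors to 234, 218, 406 and 210 CPM. The kinase sum was thus low in 1 library, and the inhibitor sum high in 1 library, that of scrambled siRNA. Of the 406 CPM there, 331 were from CDKN1A. The other detected inhibitors, CDKN1B, CDKN2C and CDKN2D, had folds of 0.921, 0.428 and 0.691 in scrambled siRNA to DMSO.

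The reads of each role were also set against the kinase reads of the same library, as raw counts, so that library size does not enter the ratio. D cyclin reads per 100 kinase reads numbered 50.1 in DMSO (48.1 to 52.1), 59.0 in PD-0332991 (56.8 to 61.4), 40.5 in scrambled siRNA (39.0 to 42.1) and 112 in CDK4/6 KD (105 to 118). Inhibitor reads per 100 kinase reads numbered 28.7 (27.3 to 30.1), 29.6 (28.1 to 31.1), 45.6 (44.0 to 47.3) and 104 (98.6 to 111) in the same order. In CDK4/6 KD, where the kinases are the siRNA targets, both ratios were above those of the other libraries. After PD-0332991 the ratio of inhibitors did not differ from DMSO beyond counting error.

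For the INK4 pair alone the ratio was 5.98 in DMSO (5.42 to 6.58), 1.91 in PD-0332991 (1.59 to 2.27), 2.76 in scrambled siRNA (2.43 to 3.12) and 16.7 in CDK4/6 KD (14.9 to 18.6). Reads of CDKN2C and CDKN2D were thus fewest per kinase read after PD-0332991 and most in CDK4/6 KD. In CDK4/6 KD the kinases are the siRNA targets, and fewer kinase reads raise the ratio. By level, the INK4 pair was highest in DMSO, at 48.8 CPM, against 14.1 in PD-0332991, 24.6 in scrambled siRNA and 33.6 in CDK4/6 KD. The other INK4 genes, CDKN2A and CDKN2B, are not in this pair. They had 26.3 and 5.61 CPM in scrambled siRNA and 14.7 and 1.24 CPM in CDK4/6 KD. Inhibitor reads per 100 D cyclin reads were 57.3 in DMSO, 50.1 in PD-0332991, 113 in scrambled siRNA and 93.6 in CDK4/6 KD, with the 2 transfected libraries above the other pair. By level, CDK4/6 KD had the lowest sum of both roles, 210 CPM for the inhibitors and 225 CPM for the D cyclins.

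**Figure D4:**
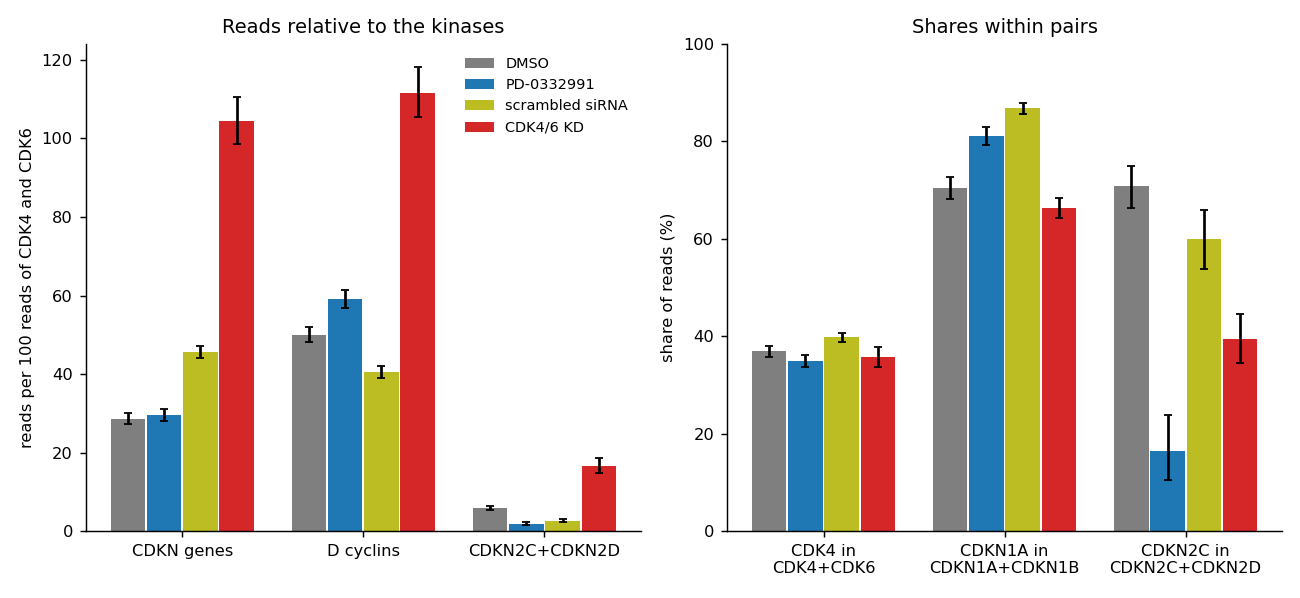
Left, reads of the inhibitor genes, the D cyclins and the INK4 pair per 100 reads of CDK4 and CDK6 in each library; right, share (%) of CDK4, CDKN1A and CDKN2C in the reads of their pair, with exact 95% intervals. CDK4/6 KD has the tallest bars on the left (104, 112 and 16.7), and on the right the share of CDKN2C is 70.9% in DMSO and 16.4% in PD-0332991.

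Set side by side, each against its own control, the treatments differed in which of the 9 genes stood out. CDKN2C had 0.0682 after PD-0332991 and 0.898 in CDK4/6 KD, CDKN1A had 1.27 and 0.354, and CDKN2D had 0.827 and 2.07. CCND3 had 0.586 and 0.558, below its control in both. Read against DMSO instead, CDK4/6 KD had 0.384 for CDKN2C, 0.896 for CDKN1A, 1.43 for CDKN2D and 0.767 for CCND3. Of these, only CDKN2C was past 2-fold, so what stood out in CDK4/6 KD depended on the control. Read against scrambled siRNA, PD-0332991 had 0.159 for CDKN2C, 0.5003 for CDKN1A, 1.20 for CDKN2D and 0.426 for CCND3. CDKN2C stayed past 2-fold, CCND3 was then past it too, and CDKN1A was on the other side of 1. The differences between the treatments were not tested, since each rests on 1 library per group and the treatments have separate controls.

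**Figure D5:**
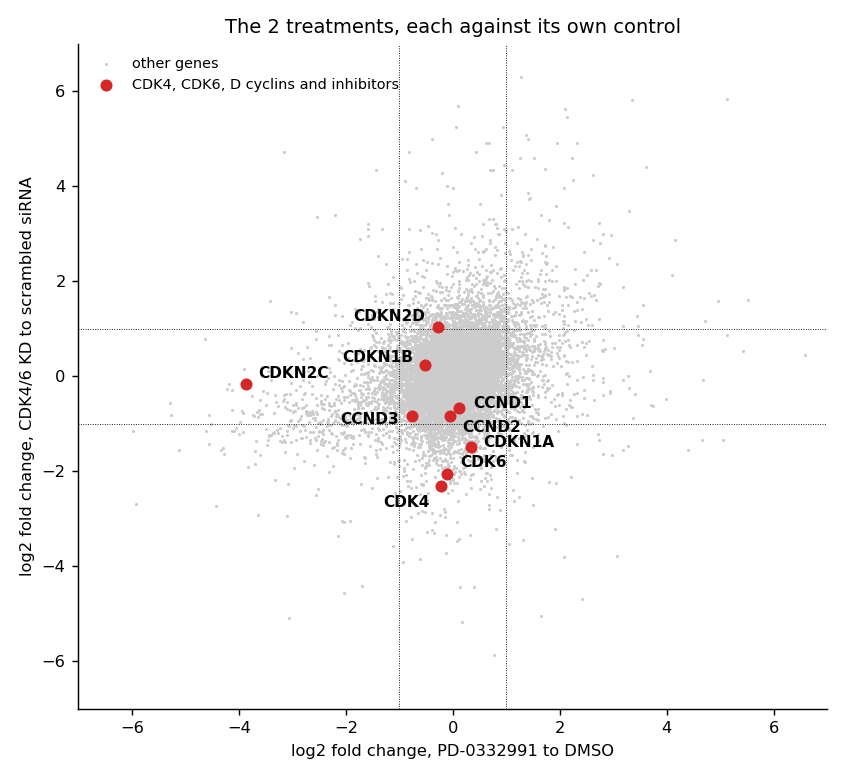
Log2 fold change of PD-0332991 to DMSO (horizontal) against CDK4/6 KD to scrambled siRNA (vertical) for all genes tested in both, with the 9 genes in red and dotted lines at 2-fold. CDKN2C lies far left (fold 0.0682) at a vertical value near 0, while CDK4, CDK6 and CDKN1A lie below the lower line near a horizontal value of 0.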

How the data were processed

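RNA of 4 HepG2 libraries, 1 per group, was sequenced by QuantSeq 3′ mRNA sequencing. The deposited values are the number of reads counted per gene, unnormalized counts made by the authors. Their processing notes name Bowtie2, edgeR and hg19 without roles; the counter, annotation and strand setting are not given in the sources used here. Each table lists 25737 entries; counts of 286 repeated symbols were summed, leaving 24462 genes.

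TMM factors were computed with edgeR 4.0.16 (R 4.3.3). A prior of 0.5 reads entered each fold change, and genes under 10 reads in both libraries were left out. Intervals came from scipy 1.17.1 and cover counting error only, PCR copies included. The code was tested on simulated data. Positions are from GENCODE 29 on GRCh38, which is not the build of the files.

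The members and gene lists were chosen with earlier results of these data known. All members were named. From each list, genes were named among those with the largest change in each direction and at least 50 reads, but not every such gene. The 3 nearest genes were found for each member with a mean of at least 50 reads. They are named only for CDKN1A, CDKN1B, CDKN2C and CDKN2D. DYRK1B, SESN1, SFN, CEBPA, the keratins named and the shorter E2F words were chosen after their values were seen. So were the folds of SKP2 and RB1 after PD-0332991, and of RB1, MAPK3, TGFBR1, BBC3 and SESN1 between the controls. Alternatives used DESeq2 1.42.0 and limma 3.58.1.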

Additional observations from a re-analysis of the deposited data

How the results depend on the processing

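The count of genes past 2-fold in CDK4/6 KD to scrambled siRNA went from 4 to 7 with a threshold of 1.5-fold, at which 36.8% of all genes were called. In PD-0332991 to DMSO it went from 1 to 2 at 1.5-fold (31.9% of all genes) and to 2 with scrambled siRNA as the control. With DMSO as the control of CDK4/6 KD the count was 3, with CDKN1A at 0.896 and CDKN2D at 1.43 no longer called and CDKN2C at 0.384 called. In scrambled siRNA to DMSO it went from 2 to 1 when both ends of the interval were required past 2-fold (3.23% of all genes). The same rule took CDK4/6 KD to scrambled siRNA from 4 to 3 (6.55% of all genes). CDKN2D, with an interval of 1.64 to 2.63, was no longer called there. The cause was not tested. DESeq2 size factors, a pseudocount of 5 reads, a filter of 50 reads or none, and keeping 1 entry per repeated symbol moved no fold change of the 9 genes beyond its counting interval. Total counts and quantile normalization each moved 4 of 27, and the control of the other arm 11 of 18. Total counts shifted the median log2 fold change of all genes in CDK4/6 KD to scrambled siRNA from -0.0036 to 0.10. Leaving out a replicate was not possible with 1 library per group. No paired analysis was possible because each group has 1 library. Depth limits CCND2, with 29 to 49 reads, CDKN2C after PD-0332991, with 21, and CDKN1C, at 0.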
